A study of Equus caballus with 26 samples.

Results

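The BCL2 family decides, at the outer membrane of mitochondria, whether a cell lives or enters apoptosis. Its survival members (BCL2, BCL2L1, MCL1 and BCL2A1) hold back the pore-forming effectors BAX and BAK1, and the proteins that carry only a BH3 domain (BCL2L11, BID, BAD and others), release that hold or activate the effectors. In blood, the protein MCL1 is short-lived and is known for keeping neutrophils alive, BCL2 for the survival of resting lymphocytes, and BCL2L11 for the death of lymphocytes deprived of cytokines or exposed to glucocorticoids.

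These 9 genes were followed in whole blood of horses that took part in 160 km endurance competitions. They were chosen by name: all 9 were found on the array, each through the gene name in the probe description, out of 24415 gene names, and the brightest probe stood for each gene. The samples were 26 arrays of 23 horses. The experimental set held 3 geldings (horses 2, 32 and 41), each sampled from the jugular vein at rest before the competition (T0) and immediately after it (T1). The validation set held 7 other horses sampled only at T0 (3 females and 4 geldings) and 13 others sampled only at T1 (3 females and 10 geldings), so that its comparison was between different animals. According to the study's methods, the horses were pure-bred or half-bred Arabians, all horses of the validation T1 group had completed the ride, and most of those sampled only at T0 had not, so that time point and outcome cannot be fully told apart in the validation set. Ages of single horses were not in the labels.

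A level below is the log2 processed signal of a probe minus the 75th percentile of its array, and levels of different probes cannot be set against each other. Per array, 60.4% to 75.4% of probes stood well above background, and precision is limited by how few arrays there were. A pair of arrays stood apart. The array of horse 34 (validation, T1) was scanned in 1 pass and held all 431 saturated spots. Horse 47 (validation, T0) had a mean level over the neutrophil markers of 3.95, whereas the other 6 horses at rest lay between 1.90 and 2.33 and the 13 horses after the ride between 3.62 and 4.61. Results were therefore also computed without each of them, a choice made after the data were seen. Horse 47 resembled the T1 horses in that level, so results without it are no independent support for a difference between T0 and T1. In whole blood, fewer cells of a type and less RNA per cell cannot be told apart, which holds for every value below.

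The probes show what was read of each transcript, so a choice of them is printed here from the array design, 5′ to 3′. Their positions are those of the array annotation, on the build that the array header names (EquCab1), and were not checked against a genome. The pair of BID probes is shown because the array carries 5 probes on each of 2 BID transcripts; capitals mark the 3 bases at which the 2 probes differ.
BID ENSECAT00000006654: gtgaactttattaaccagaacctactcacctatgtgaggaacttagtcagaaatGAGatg
BID ENSECAT00000006674: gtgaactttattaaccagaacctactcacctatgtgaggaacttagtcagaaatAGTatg
The first of these was the brightest BID probe (chr6:27722085-27722139, plus strand). With 57 of 60 bases shared, these probes cannot separate the transcripts.

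The probes of an anti-apoptotic pair and of 3 death genes follow, so that a reader can place the signal in each transcript.
BCL2: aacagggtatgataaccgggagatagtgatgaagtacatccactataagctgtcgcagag
BCL2L1: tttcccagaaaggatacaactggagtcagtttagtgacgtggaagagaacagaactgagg
BCL2L11: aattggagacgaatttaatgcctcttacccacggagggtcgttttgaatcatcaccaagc
BAK1: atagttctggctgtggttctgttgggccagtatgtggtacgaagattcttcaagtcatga
BAD: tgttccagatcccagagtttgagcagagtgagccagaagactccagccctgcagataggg
They lie at chr8:72903395-72903454 (BCL2), chr22:22722990-22723049 (BCL2L1), chr15:10824827-10837682 (BCL2L11, across an exon junction), chr20:27352095-27352154 (BAK1) and chr12:14940469-14940528 (BAD), on the minus strand except for BCL2L11. The 3 MCL1 probes of its transcript overlap on unplaced sequence, and the brightest (chrUn:79930531-79930590, minus strand) shares these bases with its neighbour.
MCL1: tttatgaagttggacttcaggatgtccagg

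Among the survival members, *MCL1* was over-expressed at T1 in the validation set. Its level in the experimental set was 4.36, 4.32 and 4.55 at T0 in horses 2, 32 and 41, and 5.51, 5.59 and 5.23 at T1. Each of the 3 horses was higher after the ride, and 51.4% of all genes tested in that set moved the same way in all 3. In the validation set the lowest, median and highest levels were 4.05, 4.49 and 5.29 at T0, and 4.85, 5.38 and 5.60 at T1. All 13 horses at T1 lay above the T0 median, and 8 of them above every T0 horse. The groups overlapped through horse 47 (5.29), and without it the highest level at T0 was 4.83 and the lowest at T1 4.85. Since horse 47 was the highest at T0, leaving it out could only widen the difference. Over all genes tested, 12.9% did not overlap between the groups without horse 47, and 2.21% with it.

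The log2 change of *MCL1* in the validation set was 0.72 (SE 0.15, 95% interval 0.40 to 1.04, limma adjusted p = 0.000789), or 1.65-fold. Without horse 47 the change was 0.84 (adjusted p = 6.08e-05). It was 0.71 without horse 34 (adjusted p = 0.00146), and 0.43 after normexp correction and quantile normalization (adjusted p = 0.00850). On the 5 scan days that held arrays of both time points, the difference was positive on 5 of 5, between 0.31 and 1.56. Each of these days held only 1 or 2 arrays at T0 and 1 to 4 at T1, and the 1.56 came from 1 against 1. The share of all genes with 1 sign on all 5 days was not computed. In the experimental set the change was 1.03 (SE 0.32, 95% interval 0.31 to 1.75), which did not pass the threshold after adjustment (p = 0.0724). It passed in 3 of 12 alternatives. These were the fit without the block for the horse (adjusted p = 0.0402), a single fit of all arrays (adjusted p = 0.0103) and the test of only genes well above background on every array (adjusted p = 0.0386). It did not pass after normexp correction and quantile normalization (adjusted p = 0.0861) or in the deposited values (adjusted p = 0.0988). The adjusted p reached 0.278 over the 12. The other MCL1 probes of the transcript moved alike, by 0.98 to 1.04 in the experimental and 0.64 to 0.72 in the validation set. A further pair of probes, tied to MCL1 by an accession and listed under another name, differed by 1.36 and 1.40 and by 1.15 and 1.18, respectively.

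*BCL2A1*, a survival member that NF-kB induces in myeloid cells, lay lower at T1 in both sets, without passing the threshold. Its levels in the experimental horses were -1.45, -3.17 and -2.67 at T0, and -3.12, -4.17 and -2.54 at T1. Horses 2 and 32 were lower after the ride, and horse 41 was not. The validation levels were -3.06, -2.09 and -1.11 (lowest, median, highest) at T0, and -4.30, -2.49 and -1.98 at T1, and 11 of 13 horses at T1 lay below the T0 median. The lowest of these was horse 34, without which the log2 change was -0.51 (adjusted p = 0.138). The log2 change was -0.65 in the validation set (SE 0.31, 95% interval -1.30 to 0.00, adjusted p = 0.0999) and -0.85 in the experimental set (SE 0.40, adjusted p = 0.188). The call depended on the samples and on the scan day. In the validation set it passed in 2 of 31 alternatives, with the scan day as a block (-1.06, adjusted p = 0.0294) and without horse 13 (-0.82, adjusted p = 0.0416). In the experimental set it passed in 1 of 12, without horse 41 (-1.33, adjusted p = 0.0377).

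*BCL2* itself varied widely between horses. Its levels were -3.69, -2.77 and -4.26 at T0 and -3.36, -3.76 and -3.81 at T1 in the experimental set, where horse 32 alone was lower after the ride. The validation horses had -4.50, -3.73 and -3.27 at T0, and -5.70, -4.08 and -2.09 at T1, so that the T1 horses ran from below the lowest to above the highest T0 horse. The log2 change was -0.23 in the validation set (SE 0.34, 95% interval -0.93 to 0.47, adjusted p = 0.610) and -0.07 in the experimental set (SE 0.38, 95% interval -0.93 to 0.79, adjusted p = 0.919). The intervals leave room for a change of nearly 1 log2 unit downwards in either set. *BCL2* lay lower at T1 on each of the 5 scan days with both time points, by 0.14 to 2.06 on the log2 scale. The validation fit with the scan day as a block gave -0.75 (limma adjusted p = 0.0924). The validation change was -0.010 after normexp correction and quantile normalization (limma adjusted p = 0.957) and -0.013 in the deposited values (limma adjusted p = 0.950).

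*BCL2L1*, which encodes the survival protein BCL-XL, was near background. Its probe was well above background on 0 of 3 and 2 of 3 experimental arrays at T0 and T1, and on 1 of 7 and 3 of 13 validation arrays, and it was not tested in either set. The levels were -6.89, -6.58 and -6.66 at T0 and -5.75, -5.25 and -6.54 at T1 in the experimental horses. With the T0 arrays set at the higher of their own signal and the lowest signal above background, its mean at T1 was 1.33-fold higher. That mean takes in horse 41, whose T1 array was not well above background, so the value is not a lower bound. The validation levels lay between -7.94 and -5.99 at T0, and between -7.35 and -4.89 at T1.

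Among the proteins with only a BH3 domain, *BID*, which caspase-8 cleaves to link death receptors to mitochondria, was under-expressed at T1. Its levels were -1.77, -1.44 and -1.72 at T0 and -2.17, -2.48 and -2.47 at T1 in the experimental horses. Each of the 3 was lower after the ride, where 51.4% of all genes tested moved the same way in all 3 horses. In the validation set the lowest, median and highest levels were -2.01, -1.63 and -1.23 at T0, and -2.56, -2.15 and -1.82 at T1. All 13 horses at T1 lay below the T0 median and 10 of them below every T0 horse, and the overlap came from horses 40 and 47 at T0.

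The log2 change of *BID* in the validation set was -0.55 (SE 0.13, 95% interval -0.82 to -0.28, limma adjusted p = 0.00176). It was -0.61 without horse 47 (adjusted p = 0.000654). The difference was negative on 5 of 5 scan days, from -0.62 to -0.26, with the same few arrays per day as for *MCL1*. The change in the validation set kept its call in the following refits. It was -0.57 without horse 34 (adjusted p = 0.00183), and -0.32 after normexp correction and quantile normalization (adjusted p = 0.00223). In the experimental set the change was -0.73 (SE 0.32, 95% interval -1.46 to -0.01, adjusted p = 0.164). It passed the threshold in 1 of 12 alternatives, a single fit of all arrays (adjusted p = 0.0264), and the adjusted p reached 0.486 over the 12. The 10 BID probes, which overlap and are not independent measurements, differed by -0.78 to -0.55 in the experimental set and by -0.61 to -0.52 in the validation set.

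*BCL2L11*, which encodes BIM, did not pass the threshold in either set. In the experimental horses its levels were -2.69, -2.0 and -2.82 at T0 and -2.65, -1.28 and -2.81 at T1. Horse 32 moved by 0.72, whereas horses 2 and 41 moved by 0.05 and 0.01. The validation levels were -2.96, -2.08 and -1.74 at T0, and -3.17, -2.29 and -0.78 at T1, where 3 of 13 horses at T1 lay above and 2 below every T0 horse. Its log2 change was 0.13 in the validation set (SE 0.28, 95% interval -0.46 to 0.72, adjusted p = 0.744) and 0.26 in the experimental set (SE 0.33, 95% interval -0.48 to 1.0, adjusted p = 0.627). *BAD*, whose protein is held inactive by survival kinases, had levels of -2.15, -2.24 and -2.56 at T0 and -2.03, -2.36 and -2.18 at T1. The validation horses had -2.77, -2.43 and -2.04 at T0, and -3.27, -2.50 and -2.05 at T1, where 2 of 13 horses at T1 lay below every T0 horse. Its log2 change was -0.09 in the validation set (SE 0.14, 95% interval -0.39 to 0.21, adjusted p = 0.641) and 0.13 in the experimental set (SE 0.31, adjusted p = 0.817).

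Of the 2 effectors, *BAK1* did not pass the threshold. Its levels were -1.93, -1.29 and -2.15 at T0 and -1.70, -1.85 and -2.40 at T1 in the experimental horses, and -3.25, -2.05 and -1.48 at T0, and -3.17, -2.14 and -1.42 at T1 in the validation set. Neither set showed a group that stood apart. Its log2 change was -0.06 in the validation set (SE 0.26, 95% interval -0.59 to 0.47, adjusted p = 0.876) and -0.19 in the experimental set (SE 0.33, 95% interval -0.93 to 0.55, adjusted p = 0.724). *BAX* was read by a single dim probe, well above background on 1 of 3 and 2 of 3 experimental arrays and on 1 of 7 and 4 of 13 validation arrays. Its levels were -6.69, -6.50 and -7.18 at T0 and -6.12, -5.74 and -5.08 at T1 in the experimental set, and all 3 horses were higher after the ride. Since 2 of the 3 arrays at T0 and 1 of the 3 at T1 were not well above background, the fitted log2 change (1.15, and 0.14 in the deposited values) is given with no test. *BAX* was not tested in the validation set, and its levels lay between -7.31 and -5.47 at T0, and between -7.71 and -4.66 at T1.

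**Figure D1:**
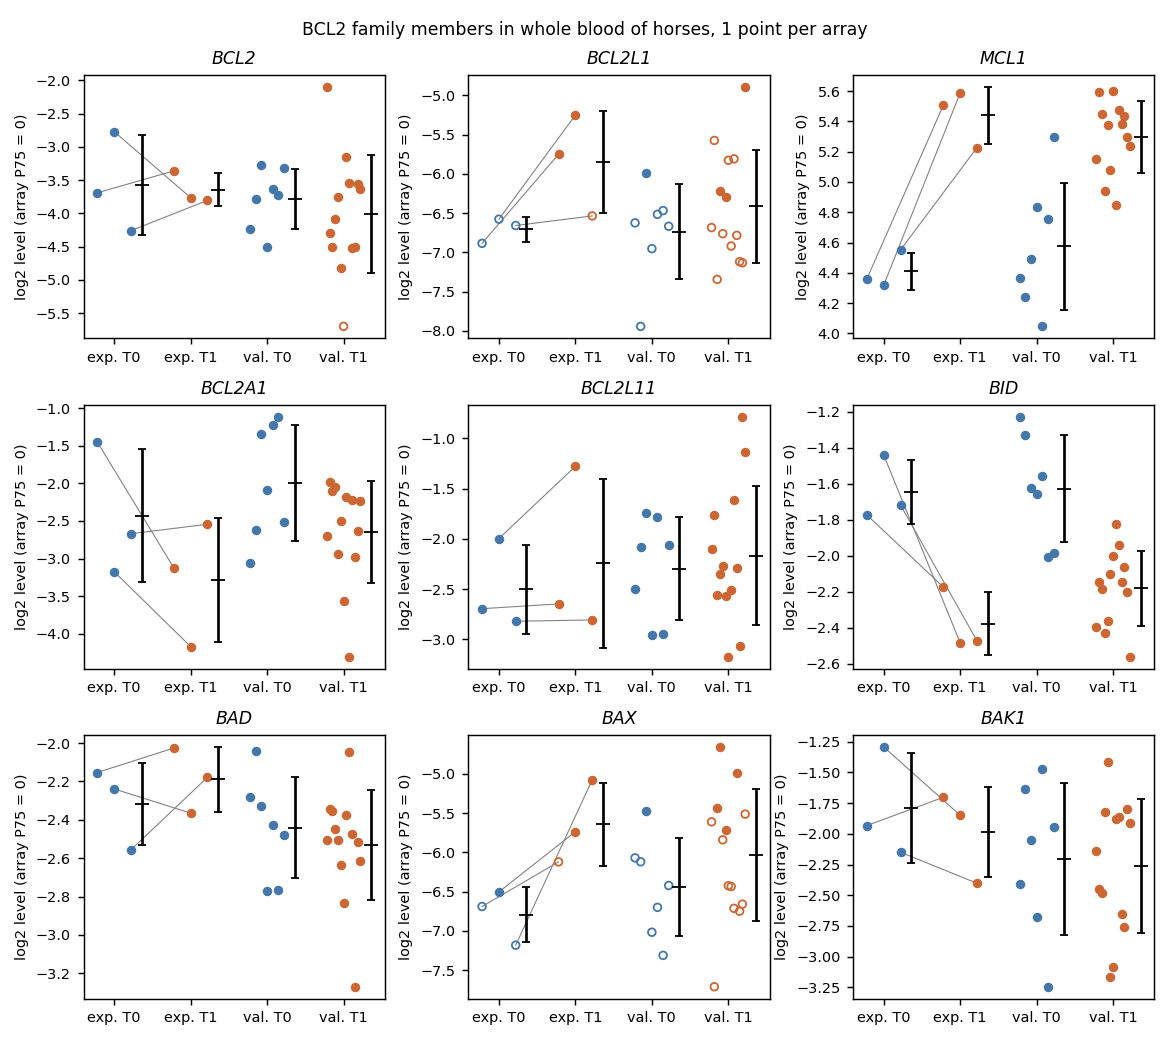
Level of each of the 9 members (log2 processed signal minus the array's 75th percentile, vertical axis, scaled separately for each gene) on every array of the experimental (exp.) and validation (val.) sets at T0 (blue) and T1 (orange). Filled points were well above background and open points were not, grey lines join the 2 arrays of a horse, and black bars give the mean and SD of a group; *MCL1* lies higher and *BID* lower at T1 in both sets, and most points of *BCL2L1* and *BAX* are open.

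Of the members, 1 of 7 tested rose and 1 fell in the validation set, that is, *MCL1* and *BID*, where 44.2% of all 17404 genes tested passed the threshold (20.2% higher and 24% lower at T1). The share of members called was thus below that of all genes. The median log2 change was -0.09 over the 7 members and -0.07 over all genes tested. In the experimental set limma called 0 of 8 members, against 10.3% of all 17490 genes tested (6.22% higher and 4.04% lower at T1), and *MCL1* and *BID* had an unadjusted p under 0.05. So did *BAX*, which entered the fit with 1 array at T0 and 2 at T1 above background and is not counted as support. Of the 8 members tested, *MCL1*, *BID*, *BCL2L11* and the dim *BAX* moved the same way in all 3 horses, as did 51.4% of all genes tested. The change in the validation set minus that in the experimental set did not pass the threshold for any of 8 members (limma adjusted p of 1.0 for each, 0 of 8 at an unadjusted p under 0.05), nor for any of 17889 genes, of which 99 had an unadjusted p under 0.05. For *MCL1* this difference was -0.31 (95% interval -0.92 to 0.30) and for *BID* 0.18 (95% interval -0.34 to 0.70), so that differences of either sign remain possible.

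The array carried 11 of 14 other genes of the family, and 9 were tested. *BCL2L10*, *BIK* and *HRK* were not analysed here. Of the 9 tested, 2 rose and 3 fell in the validation set, and in the experimental set 1 rose and 1 fell. Of all genes tested, 44.2% and 10.3% passed the threshold in the validation and experimental sets. The largest change was that of *BCL2L15*, a little studied family member. It had levels of -3.73, -3.15 and -1.57 at T0 and 0.22, 0.12 and -0.52 at T1 in the experimental horses. The validation horses had -4.50, -3.43 and -0.63 at T0, and -0.68, -0.11 and 0.59 at T1. The highest at T0 was again horse 47, through which the groups overlapped, and the other 6 lay at -2.45 or below. Without horse 47 the groups did not overlap, as for 12.9% of all genes tested. Its log2 change was 2.93 (SE 0.34, adjusted p = 3.87e-06) and 2.76 (SE 0.52, adjusted p = 0.0173) in the validation and experimental sets.

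*PMAIP1*, which encodes NOXA, a protein with only a BH3 domain that binds MCL1, was under-expressed at T1. Its levels were -2.14, -1.83 and -2.16 at T0 and -3.74, -3.95 and -3.97 at T1 in the experimental horses, each lower after the ride. The validation levels were -3.49 (horse 47), -2.22 and -1.30 at T0, and -4.67, -4.10 and -2.90 at T1. The log2 change was -1.66 (SE 0.26, adjusted p = 5.98e-05) in the validation set, or -1.86 without horse 47, and -1.84 (SE 0.32, adjusted p = 0.0129) in the experimental set. After normexp correction and quantile normalization, the validation changes were -0.77 for *PMAIP1* and 1.83 for *BCL2L15*, and both kept their calls.

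The mitochondrial receptors *BNIP3L* and *BNIP3*, which mark mitochondria for removal, differed in direction. *BNIP3L* rose by 1.04 in the validation set (SE 0.20, adjusted p = 0.000388) and had a change of 0.76 in the experimental set (SE 0.37, adjusted p = 0.206). A second gene name for it on the array had changes of 1.65 (adjusted p = 4.95e-06) and 1.35 (adjusted p = 0.0451). *BNIP3* fell by 0.51 in the validation set (SE 0.17, adjusted p = 0.0188) and had a change of -0.78 in the experimental set (adjusted p = 0.149). The fall of *BNIP3* lost its call when horse 13 or horse 14 was left out (adjusted p = 0.0605 and 0.0522), and with scaling by the median (-0.38, adjusted p = 0.0998).

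*BMF*, another BH3-only gene, fell by 0.41 in the validation set (SE 0.15, adjusted p = 0.0344), a call that 15 of 31 alternatives did not keep, with adjusted p between 0.0224 and 0.189 over all of them. *BBC3*, which encodes PUMA, had a change of -0.22 in the validation set (95% interval -0.60 to 0.16, adjusted p = 0.346) and of -0.85 in the experimental set (adjusted p = 0.110). The validation change of *BBC3* passed after normexp correction and quantile normalization (-0.39, adjusted p = 0.0320) and in the deposited values (-0.38, adjusted p = 0.0320), and was 0.025 with the scan day as a block. *BCL2L13* (0.33, adjusted p = 0.0858), *BCL2L12* (-0.19, adjusted p = 0.233) and *BCL2L2* (0.11, adjusted p = 0.535), the last read by a probe that the array describes as a readthrough with *PABPN1*, did not pass the threshold in the validation set. *BCL2L13* passed in 8 of 31 alternatives, among them the scan day as a block (0.57, adjusted p = 0.00705), the slide as a block (0.38, adjusted p = 0.0368) and all 4 other scalings (adjusted p from 0.0102 to 0.0215). *BCL2L12* passed in 3 of 31, after normexp (-0.29, adjusted p = 0.00688), with quantiles (-0.33, adjusted p = 0.0111) and in the deposited values (-0.31, adjusted p = 0.00488). *BOK*, an effector, and *BCL2L14* were well above background on 6 of 20 and 2 of 20 validation arrays and were not tested.

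**Figure D2:**
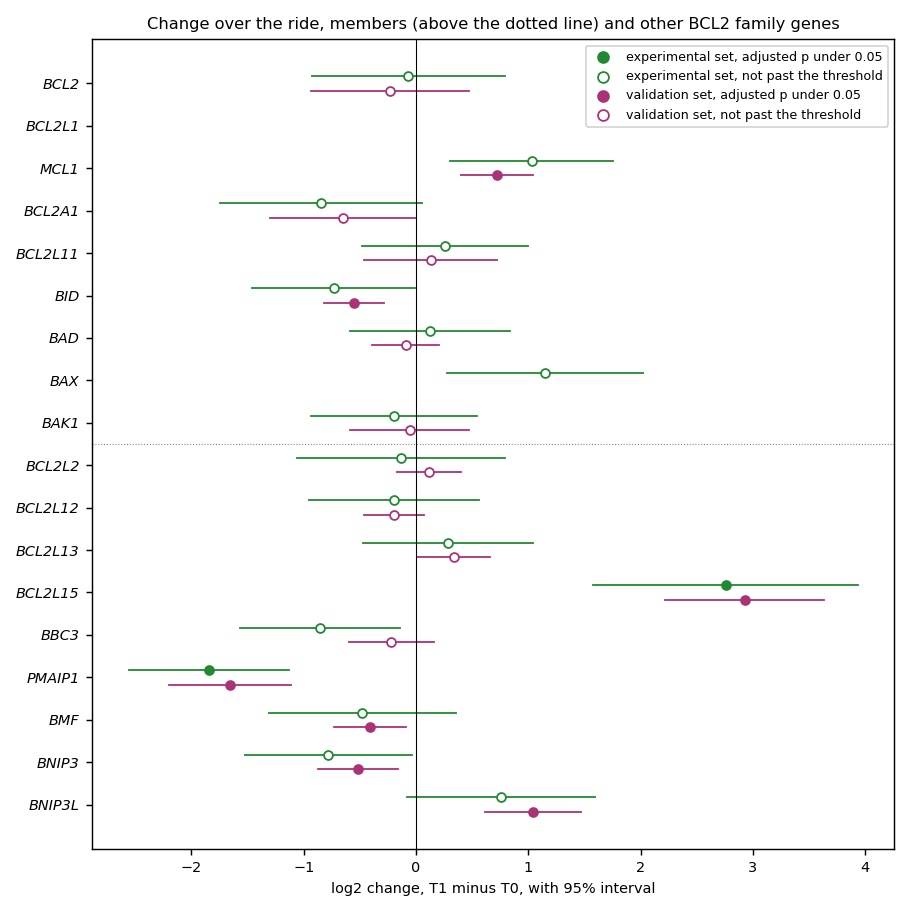
Log2 change from T0 to T1 (horizontal axis) of the 9 members and of 9 other BCL2 family genes, with 95% intervals, in the experimental set (green) and the validation set (purple). Filled points passed an adjusted p of 0.05; *BCL2L15* and *PMAIP1* are filled in both sets, and *MCL1*, *BID*, *BMF*, *BNIP3* and *BNIP3L* in the validation set alone. *BCL2L1* was tested in neither set, *BAX* not in the validation set, and the experimental value of *BAX* rests on mostly dim arrays.

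The genes around the family were read from 7 further lists. Over all genes tested, 44.2% passed the threshold in the validation set (20.2% higher and 24% lower at T1) and 10.3% in the experimental set. The counts of these lists and of the cell markers further below are to be read beside those shares. Of the list of the apoptosome and caspases, 2 of 15 rose and 3 fell in the validation set. In the experimental set limma called 0 of 15, with 4 at an unadjusted p under 0.05. *BIRC2*, an inhibitor of apoptosis, rose by 0.82 (adjusted p = 0.000178) and *APAF1*, the scaffold of the apoptosome, by 0.61 (adjusted p = 0.0117). *CASP2* fell by 0.84, *HTRA2* by 0.34 and *AIFM1* by 0.33. The calls of *HTRA2* and *AIFM1* were kept in 26 and 23 of 31 alternatives, with adjusted p of up to 0.360 for each. In the death receptor pathway, 2 of 10 rose and 2 fell in the validation set, and 1 rose and 1 fell in the experimental set. *TNFRSF1A*, the main TNF receptor, rose by 1.04 (adjusted p = 0.000141), and *TNFRSF1B* by 0.53. *TNFSF10*, which encodes the death ligand TRAIL, fell by 0.93 (adjusted p = 0.00149) and *TNF* by 0.88, a call kept in 28 of 31 alternatives (adjusted p of up to 0.200).

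Of the stress genes that control the BH3-only proteins, 5 of 10 rose in the validation set and 2 of 10 in the experimental set. *DDIT3*, which encodes the stress factor CHOP, rose by 1.45 in the validation set (SE 0.18) and by 1.37 in the experimental set (adjusted p = 0.0320). Its validation groups did not overlap, as for 2.21% of all genes tested. *JUN* rose by 0.95 and *MDM4* by 0.74 in the validation set. Of the genes that set the turnover of the MCL1 protein or its transcript, 4 of 8 rose and 0 fell in the validation set, and limma called 0 of 8 in the experimental set, with 1 at an unadjusted p under 0.05. *MAPK14* rose by 1.07, *FBXW7*, whose ligase marks MCL1 for degradation, by 0.66, and *CDK9*, the kinase that its transcription needs, by 0.59 in the validation set. The call of *MAPK14* was lost with the scan day as a block (0.92, adjusted p = 0.0644).

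Genes listed for the signals that keep neutrophils alive, regulators of these signals among them, rose in the larger part. Of 18, 12 rose and 1 fell in the validation set, with a median log2 change of 0.75 against -0.07 over all genes tested, and in the experimental set 5 of 18 rose, with a median of 1.02 against 0.03. *CEBPB* rose by 2.37 (SE 0.27) in the validation set and by 2.52 in the experimental set (adjusted p = 0.00433). *PIM1*, a survival kinase, rose by 1.78 and 2.08 in the validation and experimental sets. *NFKBIA*, which encodes an inhibitor of NF-kB and not a survival signal, rose by 1.70 and 2.39, respectively. The single fall, that of *AKT1* (-0.31, adjusted p = 0.0474), was kept in 10 of 31 alternatives. Signals that keep lymphocytes alive moved the other way: 11 of 16 fell and 2 rose in the validation set (median -0.89), and 5 fell and 1 rose in the experimental set (median -1.05). *CD40LG* fell by 1.61, *TNFRSF13B* by 1.61 and *TCF7* by 1.51 in the validation set, whereas *IL4R* rose by 1.38 and *JAK1* by 0.54, the last a call kept in 28 of 31 alternatives (adjusted p of up to 0.147). *TNFRSF13B* was dim, well above background on 9 of 13 validation arrays at T1. Over the alternatives its change ran from -2.02 to -0.41, that of *CD40LG* from -1.84 to -0.78 and that of *TCF7* from -1.68 to -0.82, all with their calls kept. Of the genes that answer glucocorticoids, 8 of 9 rose in the validation set and 6 of 9 in the experimental set, and *FKBP5* rose by 3.60 and 3.87, *DDIT4* by 2.36 and 3.37, and *PER1* by 2.14 and 2.38.

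**Figure D3:**
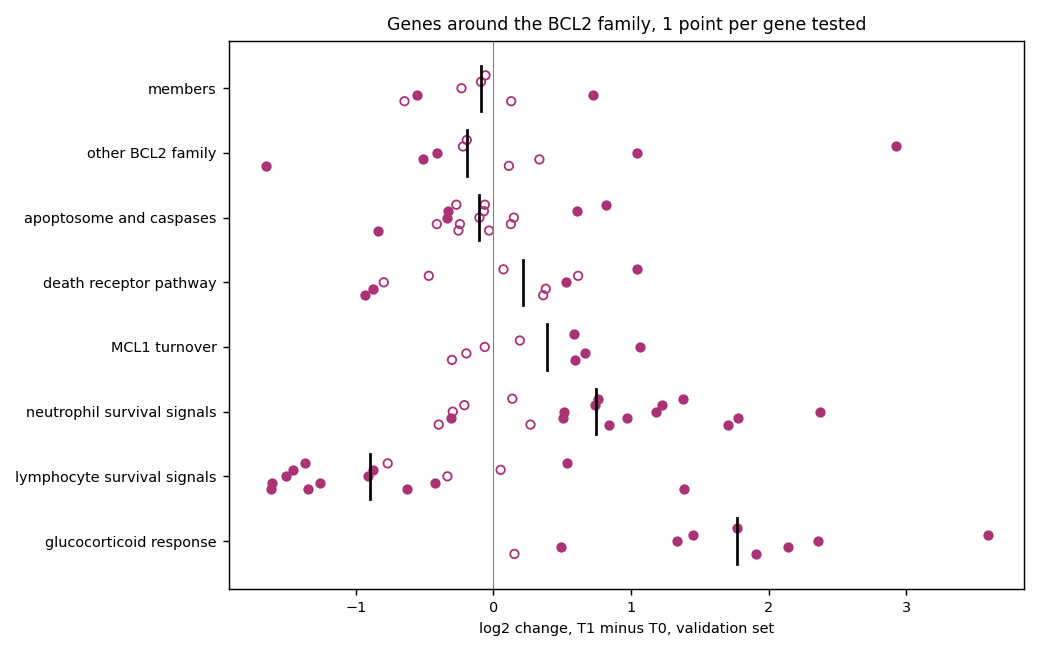
Log2 change from T0 to T1 in the validation set (horizontal axis) of each tested gene of the members, the other BCL2 family genes and the lists around them. The stress genes are not drawn. Filled points passed an adjusted p of 0.05, open points did not, black lines are the medians of a list, and height within a list only separates points; neutrophil survival and glucocorticoid genes lie mostly to the right and lymphocyte survival genes mostly to the left.

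The markers of the blood cells themselves moved with these results. Of 11 neutrophil markers, 8 rose and 0 fell in the validation set, and 7 rose in the experimental set. Their mean level ran from 1.77 to 3.1 at T0 and from 4.03 to 4.24 at T1 in the experimental set, and from 1.90 to 3.95 and from 3.62 to 4.61 in the validation set. Of 11 T cell markers 10 fell and of 10 B cell markers 9 fell in the validation set, and 6 and 5 in the experimental set. The mean level over both lists was 0.26 to 0.81 at T0 and -0.72 to -0.54 at T1 in the experimental set, and -0.24 to 0.94 and -1.46 to -0.03 in the validation set. Of 9 NK cell markers 7 fell and 1 rose, of 9 monocyte markers 4 rose and 2 fell, and of 5 eosinophil and basophil markers 4 fell in the validation set. At T0, the platelet markers *PPBP* and *GP6* and 3 of 6 erythroid markers (*SLC4A1*, *EPB42* and *CA1*) were well above background on 0 arrays. No T cell or B cell marker was at background on every array of a group. The part of these markers in the changes of *MCL1*, *BID* and the other genes between T0 and T1 was not tested.

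Within the 13 validation horses at T1, the level of each member was correlated with the neutrophil score and with the score of T cell and B cell markers, 18 relations in all. *MCL1* fell as the lymphocyte score rose (r = -0.799, permutation p = 0.00119, adjusted p = 0.0214; rho = -0.736, permutation p = 0.00596, adjusted p = 0.107), and r was -0.694 without the 2 horses farthest from the median score. The relation did not pass after normexp correction and quantile normalization (r = -0.233, permutation, adjusted p = 0.892) or in the deposited values (r = -0.229, permutation, adjusted p = 0.816), and was -0.911 over the 9 horses that shared a scan day, after the scan day means were removed. With the neutrophil score *MCL1* had r = -0.135 and rho = -0.198 (permutation p = 0.660 and 0.520, adjusted p = 0.832 and 0.668). The other 17 relations did not pass after adjustment. The largest of them was that of *BCL2L1* with the neutrophil score (r = 0.573, permutation p = 0.0393, adjusted p = 0.205; rho = 0.324), which reached r = 0.771 (permutation, adjusted p = 0.0314) without horse 34, although the probe was well above background on 3 of the 13 arrays. *BID*, the other member called, had r = -0.340 with the neutrophil and -0.121 with the lymphocyte score (permutation p = 0.255 and 0.693, adjusted p = 0.460 and 0.832).

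**Figure D4:**
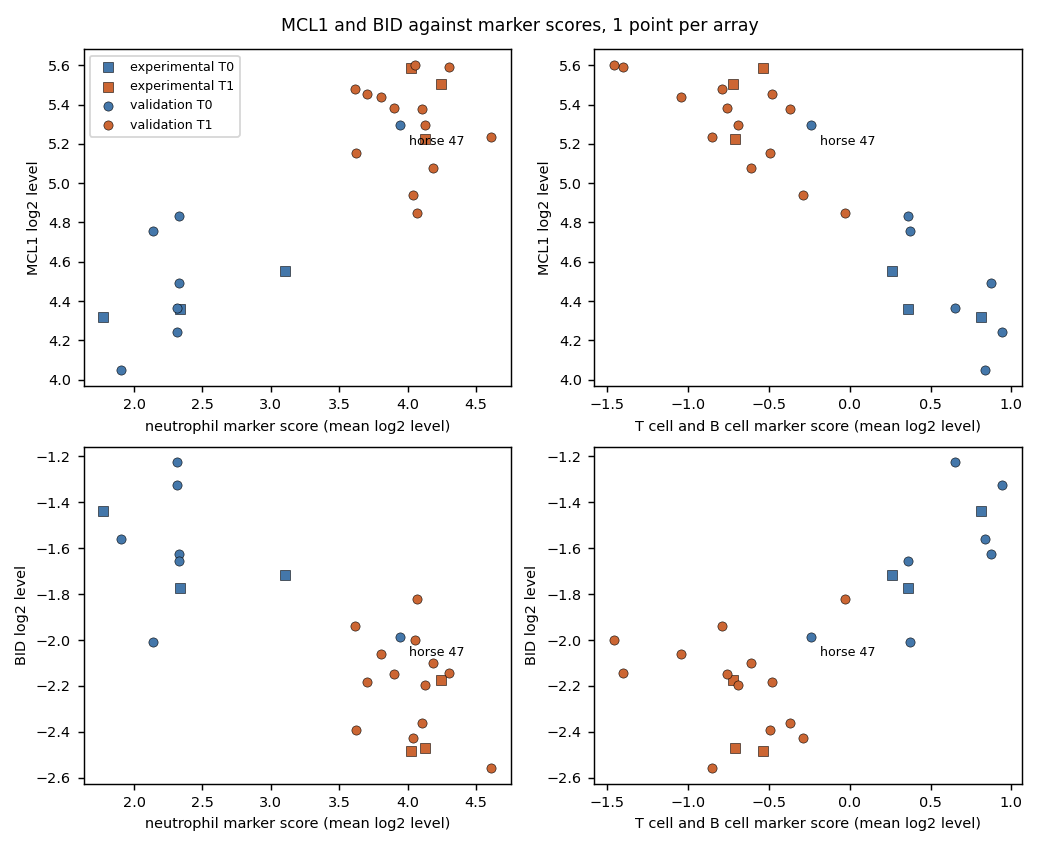
Levels of *MCL1* (top) and *BID* (bottom), vertical axis, against the mean log2 level of the neutrophil markers (left) and of the T cell and B cell markers (right), 1 point per array; squares are the experimental and circles the validation set, blue T0 and orange T1. Horse 47 at T0 (*MCL1* 5.29, neutrophil score 3.95) lies among the T1 arrays. Within the validation T1 arrays *MCL1* falls with the lymphocyte score in the scaling drawn (r = -0.799). The relation did not pass after normexp correction and quantile normalization (r = -0.233) or in the deposited values (r = -0.229).

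The genes whose level varied most like that of each member were sought over the 26 arrays, as deviations from the group means, among 11606 gene names with a symbol, as a description. *MCL1* went with *RAB1A*, *EVI2B* and *RNF19B* (r = 0.846, 0.833 and 0.824). *BCL2* went with *ABCC10*, *B4GAT1* and *TRADD* (r = 0.867, 0.826 and 0.818). *BCL2A1* went with *SNRPD1*, *RPL22L1* and *RPS3A* (r = 0.842, 0.840 and 0.824), and *BCL2L11* with *GADD45B*, *PTPN1* and *GRIPAP1* (r = 0.860, 0.824 and 0.811). *BAK1* had the closest partners of all members, *ABCF2*, *SARS1* and *SLC25A39* (r = 0.942, 0.925 and 0.921). *BID* had *TMEM187*, *GGTA1* and *PRDX3* (r = 0.743, 0.733 and 0.723), and *BAD* had *WDR73*, *DPM2* and *RNF183* (r = 0.836, 0.806 and 0.786). The dim probes of *BAX* and *BCL2L1* went with *MYO1E*, *KLHDC7A* and *OR1L8* (r = 0.860, 0.844 and 0.841) and with *KLHDC10*, *TIPRL* and *ICE1* (r = 0.688, 0.610 and 0.599). All of these points share the signal and the scaling of an array.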

How the data were processed

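Blood RNA of 26 samples was labelled with Cy3 and hybridised to a custom equine 4x44K array. Per the file headers, the deposited intensity values were read by Feature Extraction 10.7.3.1, which subtracted background to give the processed signal. The authors also deposited a table of log2 values, whose normalization is not given in the sources used here and which served as an alternative; the submitters' processing notes name limma. Levels were log2 processed signals minus each array's 75th percentile, without control spots and 386 outlier spots, with duplicate spots averaged and the brightest of a gene's probes kept. Of 24415 gene names, those well above background on at least 3 of 6 experimental or 7 of 20 validation arrays were tested with limma 3.58.1 (R 4.3.3), with Benjamini-Hochberg adjustment at 0.05. The experimental fit had the horse as a block, since both arrays came from the same animal (correlation of deviations -0.00817, 0.212 and 0.192). The validation fit had no block. The change in one set minus that in the other was fitted on the 26 arrays together, the horse entering as a random block. Correlations used 100000 permutations, two-sided. P-values measure the spread between horses. The fits were tested on simulated data. Members and lists were chosen with earlier results of these data known. Of each list around the family, at most 3 rises and 3 falls with the largest change past the threshold in the validation set were named, and for each member the 3 gene names of highest r. Alternatives covered background correction, scaling, filters, probes, blocks, sex and single horses. Some genes of the lists are not reported here.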

Additional observations from a re-analysis of the deposited data

Results flagged for a closer look

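In the 7 validation horses at rest, the gap of 1 horse to its neighbour, as a share of the range of the group, passed Dixon's critical value of 0.568 for 11 of 57 groups of values tested, where chance flags about 1 in 20. No member of the family was among them. For 10 of the 11, horse 47 was the highest: the neutrophil marker score (0.790, level 3.95), *FKBP5* (0.792, level 5.91), *PIM1* (0.763, level 3.62), *NFKBIA* (0.721, level 7.92), *MAPK14* (0.629, level 4.82), *DDIT3* (0.604, level 2.88), *PER1* (0.603, level 0.22), *JUN* (0.591, level 2.61), *DDIT4* (0.588, level 4.45) and *IL4R* (0.586, level 7.11). These values share 1 array and are not independent. For *CASP2* it was horse 13 (0.656, level -2.60).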

How the results depend on the processing

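In the experimental set, 1794 genes passed the threshold. The count was 2938 when all arrays were fitted at once, 46 with no filter on dim probes, 2838 with genes well above background on every array, and 145 (without horse 2) to 3051 (without horse 41) with 1 horse left out, and 1791 with no replicate block. Of the members, 0 passed. The count was 2 in the single fit (*MCL1* and *BID*), 1 with no replicate block and 1 with the filter on every array (both *MCL1*), and 0 to 1 with a horse left out (*BCL2A1* without horse 41). In the validation set *MCL1* and *BID* kept their direction and call in all 31 alternatives. The share of calls that were higher at T1 was 60.6% in the experimental set, against 48.2% with normexp, 49.6% with quantile normalization and 47.5% in the deposited values, and 45.8% in the validation set, against 58.6% with scaling by the median, which moved the median change of all genes from 0.03 to 0.14 and from -0.07 to 0.07. Of 18 correlations, 1 passed, against 0 with normexp, 0 in the deposited values and 2 without horse 34, an alternative chosen after seeing the data.

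The sign turned for changes that had not passed, and the cause was not tested. *BCL2* in the experimental set was 0.040 with median scaling and -0.33 to 0.39 with a horse left out. In the validation set *BAK1* was 0.080 with median scaling, 0.034 with normexp, 0.047 with quantiles, 0.031 in the deposited values and -0.23 to 0.064 with a horse left out. *BAD* was 0.047, 0.0081 and 0.029 with median scaling, normexp and quantiles. With the scan day as a block *BCL2L11* was -0.35 and *BBC3* 0.025, and with the mean of its probes *BCL2L2* was -0.032. For *BCL2* the difference between the sets was 0.055 with normexp and 0.080 in the deposited values. With the neutrophil score, r was 0.0883 (*BCL2*), 0.0186 (*BAX*) and 0.132 (*BAD*) with normexp, 0.0824 (*BCL2*) and 0.0798 (*BAD*) in the deposited values, -0.293 (*BCL2L11*) and 0.598 (*BAX*) with scan day means removed, 0.227 (*BID*) and 0.202 (*BAD*) without the 2 horses farthest from the median, and 0.116 (*BAD*) without horse 34. With the lymphocyte score, r was -0.191 (*BCL2L11*) and -0.0550 (*BAD*) with normexp, -0.198 and -0.0748 in the deposited values, -0.612 (*BAD*) with scan day means removed, and -0.204 (*BCL2L11*) and 0.0947 (*BID*) without the 2 farthest horses. Over single genes and relations, 1483 refits kept direction and call, 21 gained a call, 62 lost it and 35 turned. The experimental set, with 3 horses, and probes near background (*BCL2L1*, *BAX*) limit what can be called.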

Other observations

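Among the members, the levels of *BCL2L11* and *BAK1* (r = 0.641), *BCL2* and *BAK1* (r = 0.624) and *BAK1* and *BAD* (r = 0.547) varied together over the 26 arrays, as deviations from the group means, whereas *BCL2A1* and *BID* (r = -0.410) and *MCL1* and *BAX* (r = -0.389) varied in opposite directions. In the 7 validation horses at T0, *MCL1* had r = 0.805 with the neutrophil score, which was -0.408 without the 2 horses farthest from the median. With the lymphocyte score it had r = -0.933, and -0.819 without them. These are descriptions over arrays that share scaling, with no test.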
